A study of Mus musculus with 2 samples.

Results

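Glucose enters muscle fibres, and lactate crosses their membrane, through the products of a small group of genes, and 10 of these were described in mouse calf muscle. The set was chosen by name: the glucose transporters Slc2a1, Slc2a3, Slc2a4, Slc2a8 and Slc2a12, the monocarboxylate transporters Slc16a1 and Slc16a3, their chaperone Bsg, and the lactate dehydrogenases Ldha and Ldhb. It holds 10 of the 55536 genes of the deposited gene tables. The tissue was gastrocnemius, a calf muscle, and 2 libraries of total RNA were sequenced from female B6CASTF1/J mice aged 2 months, hybrids of the B6 and CAST strains. The input was 300 ng of RNA per library, and ERCC spike-ins, synthetic control RNAs, were added. No treatment or other genotype is named, so there was 1 group of 2 libraries, called animal 1 and animal 2 here, and no contrast of conditions. The labels number the mice and the biological replicates separately but give both the same donor record. Whether the libraries came from separate mice is therefore not settled by the labels, and the spread between them may be technical.

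Muscle takes up glucose mainly through GLUT4, the product of Slc2a4, which insulin and contraction move from internal vesicles to the cell surface. GLUT1, from Slc2a1, sits at the surface of many cell types and supplies basal uptake. Lactate and protons leave or enter cells through MCT1 (Slc16a1), a transporter of high affinity that is prominent in oxidative fibres, and MCT4 (Slc16a3), which is prominent in glycolytic fibres and exports lactate. Both need the membrane glycoprotein basigin (Bsg) to reach the surface. Lactate dehydrogenase is a tetramer of subunits from Ldha, the form typical of fast muscle, and Ldhb, the form typical of heart and slow muscle, and it interconverts pyruvate and lactate.

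The libraries held 45231388 and 47956841 expected counts, of which spike-ins took 0.479% and 0.387%. Fast fibre markers summed to 53404 and 50426 TPM (a level per transcript length, scaled to a fixed total) in animals 1 and 2, against 928.6 and 3980 TPM for 8 slow fibre markers, so the labelled tissue carried its defining genes. Other cell types differed between the libraries. The 8 adipocyte markers summed to 966.3 and 392.8 TPM, and 7 of the 8 were higher in animal 1 by 2-fold or more. The exception, Lpl, was higher in animal 2, at 194.5 and 293.2 TPM, and made up most of the sum there. The 8 Schwann cell and myelin markers summed to 250 and 33.7 TPM. Neuron markers summed to 0.23 and 0.08 TPM and neutrophil markers to 0.60 and 0.13 TPM. In bulk tissue, fewer cells of a type and less RNA per cell cannot be told apart.

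Of the 10 genes, 9 reached 1 TPM in both animals, and the exception, Slc2a3, reached it in animal 1 alone. There its full-length transcript stood at 0.87 TPM in the first transcript table. An incomplete transcript of 601 nt added 0.41 TPM from 7.76 counts. Of 22015 nuclear protein-coding genes, 10821 reached 1 TPM in animal 1 and 10333 in animal 2. All 10 genes of the set had a mean expected count of 100 or more. In order of mean level they ran Ldha, Ldhb, Bsg, Slc2a4, Slc16a3, Slc16a1, Slc2a12, Slc2a8, Slc2a1 and Slc2a3. Neighbours in this order were compared by the log2 ratio of their TPM, and a ratio was taken as beyond the spread where its mean over the animals exceeded 2 SD with 1 sign in both. This held for 5 of 9 neighbouring pairs. It did not hold for Ldha over Ldhb, Ldhb over Bsg, Slc2a4 over Slc16a3, or Slc2a8 over Slc2a1. In the gene table Ldhb and Bsg exchanged places between the animals, as did Slc2a8 and Slc2a1. In the second transcript table Ldhb stood above Bsg in both animals, at 415.1 against 406 TPM and 884.9 against 351.2 TPM. Incomplete transcripts held 66.5% and 65.8% of Ldhb TPM in that table. On its transcripts with a CCDS coding sequence alone, Ldhb stood at 139.1 TPM against 355.1 TPM for Bsg in animal 1. In animal 2 these values were 302.6 and 239.8 TPM, so the genes exchanged places there too. The place of Slc2a1 also depended on the table: in the second transcript table its mean was 6.30 TPM, above Slc2a12 at 6.05 TPM and above Slc2a8. That order held in animal 1 alone, where Slc2a1 stood at 8.60 TPM against 6.16 and 5.03 TPM. In animal 2 Slc2a1 stood at 4.01 TPM, below Slc2a12 at 5.94 TPM and Slc2a8 at 4.24 TPM. The full-length Slc2a1 transcript was at 2.44 and 1.18 TPM in that table.

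**Figure D1:**
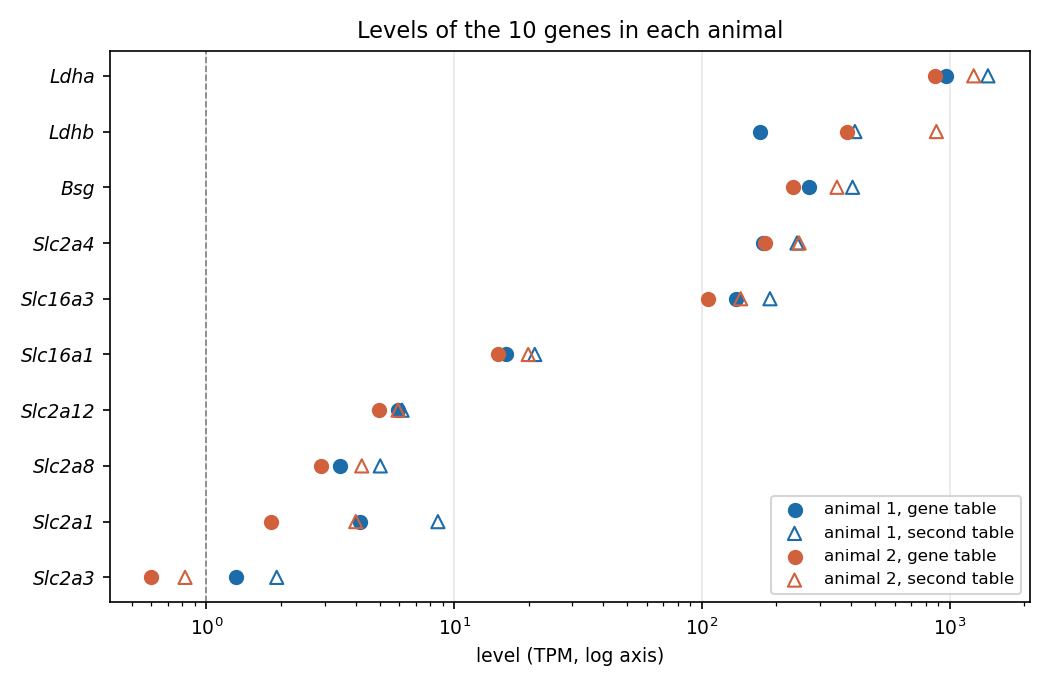
Level of each of the 10 genes in TPM on a log axis, one row per gene, in animal 1 (blue) and animal 2 (orange), from the gene table (filled circles) and from the second transcript table (open triangles). The dashed line marks 1 TPM. Ldha lies furthest right at 965.8 and 875.4 TPM, Slc2a3 lies at the line, and the animals stand visibly apart for Ldhb, Slc2a1 and Slc2a3.

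Slc2a4 was the main glucose transporter RNA of this muscle. It stood at 176.7 and 180.5 TPM in animals 1 and 2 (mean 178.6 ± 2.63, SD, n = 2), from 15656 and 16850 expected counts. It made up 92.2% and 94.6% of the summed TPM of the 5 glucose transporters. The gene lies at chr11:69942539-69948188 on the minus strand of mm10. Its log2 ratio of scaled counts, animal 2 over animal 1, was 0.12, with an exact binomial 95% interval from 0.09 to 0.15 that covers counting error only. Over the settings tried the ratio ran from 0.02 with scaling by library size alone to 0.33 with spike-in totals.

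The remaining glucose transporters were each at a small part of the Slc2a4 level. Slc2a12, which encodes GLUT12, a transporter found in insulin-sensitive tissues, stood at 5.92 and 4.96 TPM. Slc2a8 encodes GLUT8, a mostly intracellular transporter, and stood at 3.45 and 2.91 TPM. In TPM both were a little lower in animal 2, while their log2 ratios of scaled counts were 0.10 (interval -0.05 to 0.25) and -0.09 (interval -0.35 to 0.18), and both intervals include 0. In the first transcript table the coding Slc2a12 transcript stood at 4.52 and 4.58 TPM. A processed transcript of 398 nt made up the rest, at 1.40 and 0.37 TPM from 15.75 and 4.46 counts. The second table gave the coding transcript 6.16 and 5.94 TPM. Within each animal, Slc2a4 exceeded Slc2a12 by a log2 of 4.88 and 5.16, and Slc2a8 by 5.64 and 5.91, which was beyond the spread for both pairs. For Slc2a12, 7.45% of 100-nt windows of its transcripts also occur, on either strand, in Tbpl1, a gene that overlaps it. The deposited posterior SD of the Slc2a12 count, a measure of uncertain read assignment, was 0 in both animals. The strand setting is not given.

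Slc2a1 was 2-fold higher in animal 1. It stood at 4.18 and 1.83 TPM in animals 1 and 2, from 419 and 199 expected counts. The log2 ratio was -1.06 (interval -1.31 to -0.81), a 2.08-fold higher scaled count in animal 1. The gene lies at chr4:119108711-119137983 on the plus strand. Slc2a3, which encodes GLUT3, a high-affinity transporter best known from neurons and blood cells, stood at 1.32 and 0.60 TPM, from 144 and 88 counts, with a log2 ratio of -0.69 (interval -1.10 to -0.30). Both were thus lower in animal 2, and neither sign changed under any scaling tried. With spike-in scaling the Slc2a1 ratio was -0.85 and in the second transcript table it was -0.99, both short of 2-fold.

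Markers of non-muscle cell types differed in both directions. Besides the adipocyte and Schwann cell lists, where the median log2 ratio was -3.83 and -2.97, the endothelial list (7 genes, 79.9 and 63.0 TPM in sum) had a median of -0.22 and the macrophage list (6 genes, 51.5 and 32.3 TPM) a median of -0.56. Of the 7 endothelial genes 2 were above 0, and spike-in scaling moved the median of all genes to 0.22, about the size of the endothelial median. The platelet list summed to 7.58 and 5.48 TPM. The erythroid list had a median of 0.47 with 7 of 7 genes above 0, and the tenocyte list 0.80 with 5 of 5 above 0. Their part in the Slc2a1 and Slc2a3 values was not tested. Slc2a1 exceeded Slc2a3 by a log2 of 1.59 and 1.46, and by 2.11 and 2.16 in the second transcript table. The 2 values lay further apart with expected counts, at 1.54 and 1.18. On transcripts with a CCDS coding sequence alone they were 1.55 and 0.88 in the first table and 1.13 and 0.59 in the second. Slc2a4 exceeded Slc2a1 by 5.37 and 6.55, or 41.3-fold and 93.5-fold on the TPM + 0.1 scale.

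Slc2a1 is a known target of hypoxia-inducible factor, whose core sites read ACGTG or GCGTG, so its promoter is shown with these letters in capitals on either strand. It is the RefSeq sequence of GRCm38.p6 at chr4:119108495-119108794, plus strand, 250 bases before to 50 after the annotated start, 5′ to 3′.
Slc2a1: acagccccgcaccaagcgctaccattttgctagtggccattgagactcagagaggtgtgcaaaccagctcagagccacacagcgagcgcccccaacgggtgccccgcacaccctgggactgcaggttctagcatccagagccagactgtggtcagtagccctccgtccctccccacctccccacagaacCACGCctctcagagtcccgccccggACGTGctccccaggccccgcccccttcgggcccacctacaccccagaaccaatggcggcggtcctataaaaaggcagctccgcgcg
It holds 1 ACGTG and 1 GCGTG, and 1 TATAAA. Among 32851 RefSeq promoters of the same length, 19.6% hold ACGTG, 32.4% GCGTG and 13.6% TATAAA on either strand. A match is a description of the letters and not evidence of binding.

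Slc16a3 was the main monocarboxylate transporter RNA. It stood at 137.9 and 105.7 TPM in animals 1 and 2 (121.8 ± 22.8, SD, n = 2), and Slc16a1 at 16.2 and 15.1 TPM (15.6 ± 0.771). Slc16a3 lies at chr11:120948480-120960868 and Slc16a1 at chr3:104638668-104658462, both on the plus strand. Slc16a3 made up 89.5% and 87.5% of the summed TPM of the pair. The log2 ratio of Slc16a3 over Slc16a1 was 3.08 and 2.80, beyond the spread. Slc16a3 was lower in animal 2 under all 6 settings tried, with a log2 ratio of scaled counts of -0.30 (interval -0.34 to -0.26) and -0.09 with spike-in scaling. For Slc16a1 the ratio was 0.00 (interval -0.07 to 0.08), and its sign changed with the scaling.

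Bsg was the most abundant of the transport genes. It stood at 271.2 and 233.9 TPM in animals 1 and 2 (252.5 ± 26.4, SD, n = 2), from 11829 and 10811 expected counts, and lies at chr10:79704491-79711969 on the plus strand. Its level was 1.76 and 1.94 times the summed TPM of Slc16a1 and Slc16a3. It exceeded Slc16a3 by a log2 of 0.97 and 1.14 and Slc16a1 by 4.06 and 3.95, both beyond the spread. Between animals its log2 ratio was -0.12 (interval -0.15 to -0.08), and 0.09 with spike-in scaling. The other known chaperones of these transporters were lower than Bsg: Nptn (neuroplastin) stood at 37.5 and 36.5 TPM, and Emb (embigin) at 5.07 and 3.82 TPM.

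Bsg transcripts differ at their 5′ part, and the tables split them differently. Bsg-205, with 7 exons and a coding length of 819 nt, held 83.6% and 71.8% of Bsg TPM in the first transcript table and 53.1% and 33.1% in the second. Bsg-202, which starts downstream and has a coding length of 654 nt, held 14.7% and 26.4% in the first table and 12.1% and 31.2% in the second. In both tables Bsg-202 thus took a larger share in animal 2. Bsg-201 carries an additional coding exon of 348 nt and encodes the long form of basigin, known from the retina, with an additional immunoglobulin-like domain. It was at 1.05% and 0.804% in the first table but at 34.4% and 35.2% in the second.

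The junctions that tell Bsg-201 from Bsg-205 are shown because the tables differ on them. Both begin with a first exon that ends at position 79704584 of chromosome 10 (mm10, plus strand). The second exon is chr10:79708697-79709044 in Bsg-201 and chr10:79709671-79709827 in Bsg-205. Each line gives the last 20 bases of the first exon in lower case and the first 20 of the next exon in capitals, 5′ to 3′, from the GENCODE M21 transcripts.
Bsg-201: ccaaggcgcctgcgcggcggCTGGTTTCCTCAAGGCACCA
Bsg-205: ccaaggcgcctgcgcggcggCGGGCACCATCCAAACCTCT
Read coverage of these junctions was not analysed here, so the share of the long form is given as 2 estimates.

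Ldha was the most abundant of the 10 genes. It stood at 965.8 and 875.4 TPM in animals 1 and 2 (920.6 ± 64.0, SD, n = 2), from 53856 and 51940 expected counts. It ranked 37 and 38 among 22015 nuclear protein-coding genes. Between animals its log2 ratio was -0.04 (interval -0.06 to -0.02), and its sign changed with the scaling, from -0.14 by library size to 0.17 with spike-ins. The gene lies at chr7:46841475-46855627 on the plus strand.

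Ldhb was more than 2-fold higher in animal 2. It stood at 171.2 and 384.0 TPM in animals 1 and 2 (277.6 ± 150.5, SD, n = 2), from 6347 and 14676 expected counts. Its rank was 282 and 110. The log2 ratio was 1.22 (interval 1.18 to 1.27), a 2.34-fold higher scaled count in animal 2, and it ran from 1.12 to 1.43 over all settings tried. The gene lies at chr6:142490249-142507957 on the minus strand.

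The balance of the subunit genes therefore differed between the animals. Ldhb made up 15.0% of the summed Ldha and Ldhb TPM in animal 1 and 30.5% in animal 2. The log2 ratio of Ldha over Ldhb was 2.50 and 1.19 (1.84 ± 0.92, SD, n = 2), and it was the 1 pair of 9 whose mean did not exceed 2 SD. Ldha was the higher gene in each animal. In the second transcript table the ratio was 1.78 and 0.50, and Ldhb made up 22.5% and 41.4%. When TPM was taken from transcripts with a CCDS coding sequence alone, a choice made after seeing the data, the mean ratio was 2.29 in the first table and 2.60 in the second, beyond the spread in both. With expected counts in place of TPM, which are not per length, it was 3.09 and 1.82 (2.45 ± 0.89, SD, n = 2), also beyond the spread.

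Slow fibre markers moved with Ldhb. All 8 exceeded 2-fold in favour of animal 2, and their median log2 ratio was 2.49. Myh7, the slow myosin heavy chain, stood at 92.6 and 596 TPM, and Tnni1, the slow troponin I, at 36.6 and 216.4 TPM. The 9 fast fibre markers had a median of -0.02, with none 2-fold apart. Their part in the Ldhb value was not tested. Slc16a1, which is also prominent in oxidative fibres, had a ratio of 0.00.

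**Figure D2:**
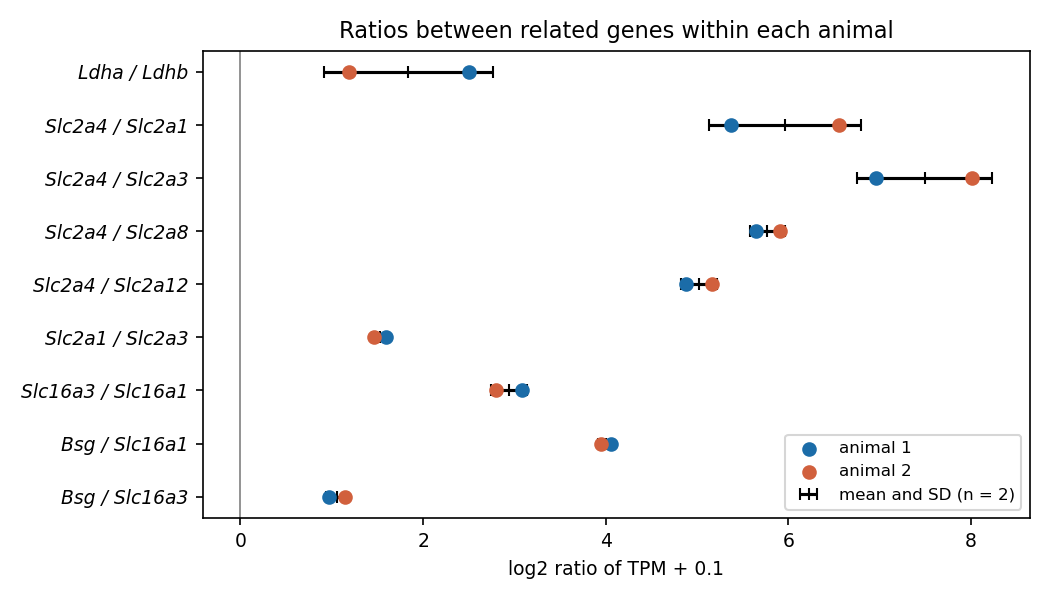
Log2 ratio of TPM + 0.1 for 9 pairs of related genes within each animal (animal 1 blue, animal 2 orange), with mean and SD over n = 2 in black. The points of Ldha over Ldhb lie furthest apart, at 2.50 and 1.19, and the points of all 9 pairs lie above 0.

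Transcript shares of the lactate dehydrogenase genes also depended on the table. Ldha-202 held 98.7% and 98.9% of Ldha TPM in the first table, and 40.3% and 34.9% in the second. The second table gave 51.3% and 55.4% to Ldha-201, which the first listed at 0. Both have a coding length of 996 nt, and they differ in the first exon: Ldha-202 starts at position 46845839 and Ldha-201 at 46847131. For Ldhb, the full-length Ldhb-201 held 74.3% and 70.9% in the first table and 33.5% and 34.2% in the second. Transcripts annotated as incomplete at an end held 25.7% and 29.1% in the first table and 66.5% and 65.8% in the second.

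The Ldha starts have separate RefSeq promoter entries, printed here because the tables place Ldha RNA at different starts. The Ldhb entry is printed beside them. Capitals mark ACGTG or GCGTG on either strand, and CACGTG holds ACGTG on both. The sequences are from GRCm38.p6, 5′ to 3′: the upstream Ldha entry at chr7:46845554-46845853 and the downstream entry at chr7:46846832-46847131, both plus strand, and Ldhb at chr6:142507908-142508207, minus strand.
Ldha upstream: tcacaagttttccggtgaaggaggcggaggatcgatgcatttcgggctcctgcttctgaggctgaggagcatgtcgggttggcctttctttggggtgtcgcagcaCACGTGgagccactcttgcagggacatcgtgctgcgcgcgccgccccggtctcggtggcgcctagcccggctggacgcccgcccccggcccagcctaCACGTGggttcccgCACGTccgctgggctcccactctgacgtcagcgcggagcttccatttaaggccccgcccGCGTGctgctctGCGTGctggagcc
Ldha downstream: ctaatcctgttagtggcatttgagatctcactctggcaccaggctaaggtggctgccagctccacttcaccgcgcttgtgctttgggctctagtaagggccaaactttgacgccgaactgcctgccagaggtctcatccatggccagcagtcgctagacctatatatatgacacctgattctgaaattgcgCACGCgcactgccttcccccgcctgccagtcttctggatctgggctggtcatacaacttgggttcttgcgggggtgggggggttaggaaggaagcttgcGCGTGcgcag
Ldhb: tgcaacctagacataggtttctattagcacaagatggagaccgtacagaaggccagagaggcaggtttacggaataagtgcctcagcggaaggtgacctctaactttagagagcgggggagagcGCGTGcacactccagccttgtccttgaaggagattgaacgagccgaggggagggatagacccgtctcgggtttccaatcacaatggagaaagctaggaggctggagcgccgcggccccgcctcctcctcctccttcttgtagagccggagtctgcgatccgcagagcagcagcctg
The upstream Ldha entry holds 5 ACGTG and 2 GCGTG, counted over both strands. The downstream entry holds 0 and 2, and Ldhb 0 and 1. Of the 10 genes, 7 had an entry, and Bsg, Slc2a3 and Slc2a4 were not matched. Among the remaining entries, Slc16a1 holds 3 and 2, Slc16a3 2 and 0, Slc2a8 0 and 1, and Slc2a12 none of either. As for Slc2a1, a match describes the letters only. Any link of these matches to the levels or to the difference between the animals was not tested.

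**Figure D3:**
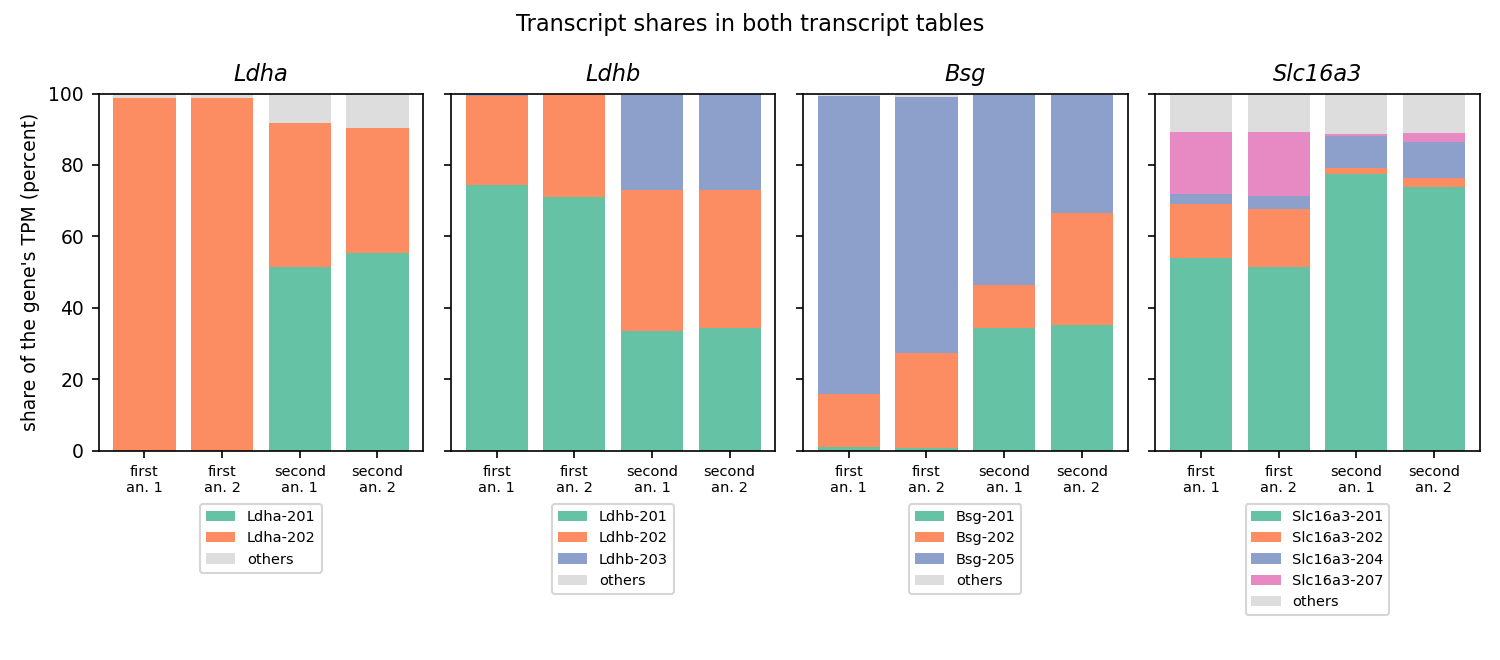
Share of each gene's TPM in percent held by its transcripts, for Ldha, Ldhb, Bsg and Slc16a3, as stacked bars for animals 1 and 2 (an. 1, an. 2) in the first and the second transcript table. Transcripts below 5% in every bar are pooled as others. Between the tables the leading Ldha transcript changes, incomplete Ldhb transcripts gain, and Bsg-201 appears at 34.4% and 35.2%.

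For Slc2a4 and Slc16a3 the tables named the same leading transcript. A single full-length transcript held 92.9% and 90.5% of Slc2a4 TPM in the first table and 91.5% and 87.8% in the second. The leading Slc16a3 transcript held 54.1% and 51.4% in the first table and 77.4% and 73.9% in the second. For Slc2a1, the full-length transcript held 66.0% and 60.1% in the first table and 28.4% and 29.5% in the second, where a transcript annotated for nonsense-mediated decay led with 35.2% and 32.3%. Over the 65 transcripts of the set, 1 transcript held over 50% of its gene in both animals for 10 of 10 genes in the first table and 7 of 10 in the second. By mean share over the animals, the tables named the same leading transcript for 7 genes and another one for Slc2a1, Ldha and Ldhb. Bsg is among the 7, but in animal 2 of the second table Bsg-201 led Bsg-205, with 35.2% against 33.1%.

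Across the set, 1 of 10 genes was 2-fold or more higher in animal 2 (Ldhb), against 0.782% of the 10872 genes whose mean count reached 100. In the other direction it was also 1 of 10 (Slc2a1), against 2.24%. At 1.5-fold the counts were 1 of 10 against 2.37% and 2 of 10 (Slc2a1 and Slc2a3) against 5.7%. The median log2 ratio of the 10 genes was -0.06, with 4 above 0 and 6 below, beside 0.01 for all 10872 genes. With 1 library on each side these are descriptions, with no test.

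**Figure D4:**
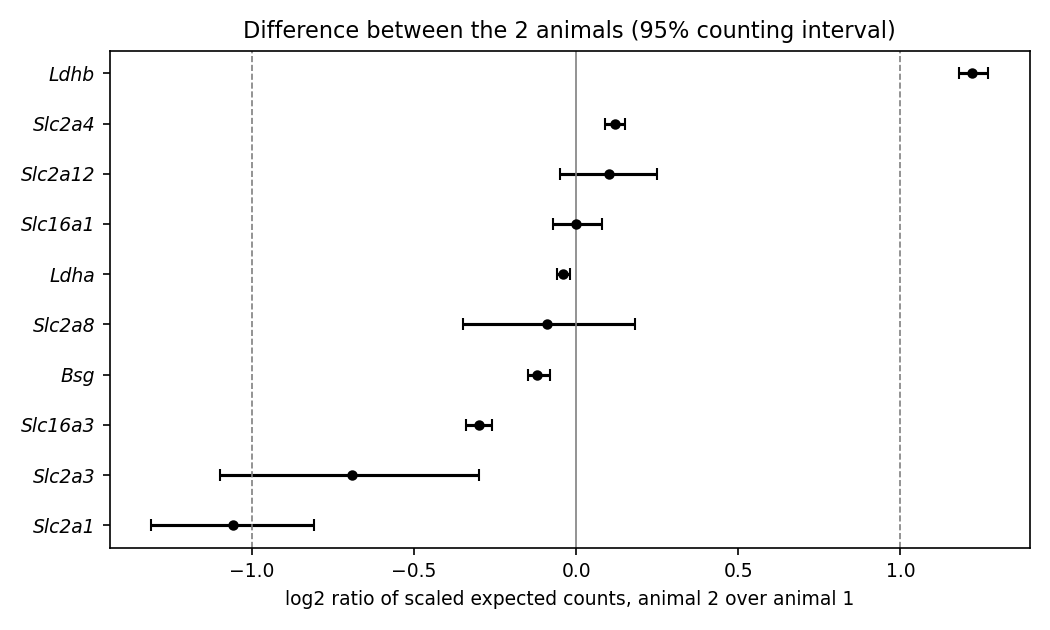
Log2 ratio of scaled expected counts, animal 2 over animal 1, for each of the 10 genes, with the exact binomial 95% interval for counting error. Dashed lines mark 2-fold. Ldhb lies beyond the line on the right at 1.22 and Slc2a1 beyond the line on the left at -1.06, where its interval crosses the line.

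Other genes that handle glucose and lactate give the setting. Of 10 other glucose transporters, 1 reached 1 TPM in both animals: Slc50a1, at 4.51 and 3.49 TPM. Of 14 other monocarboxylate transporters, 5 did, led by Slc16a10, an aromatic amino acid carrier, at 13.4 and 14.3 TPM. No gene of these lists was 2-fold apart with a mean count of 100 or more. Ldhc, the testis form of lactate dehydrogenase, had no reads, and Ldhd, the mitochondrial D-lactate dehydrogenase, stood at 11.2 and 12.8 TPM.

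The genes that move GLUT4 vesicles were all detected, 20 of 20 at 1 TPM in both animals, with a median log2 ratio of -0.04. Of the 19 with a mean count of 100 or more, 1 was 2-fold higher in each direction. They are the related Rab GTPase-activating proteins Tbc1d1 and Tbc1d4, which hold GLUT4 vesicles inside the cell until phosphorylated. Tbc1d1 stood at 58.9 and 16.8 TPM in animals 1 and 2 (log2 ratio -1.63), and Tbc1d4 at 10.1 and 22.6 TPM (1.21). Slc2a4 itself differed by 0.12 between the same libraries.

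Among downstream steps, Hk2, Mpc1 and Mpc2 differed little between the animals. Hk2, the muscle hexokinase that traps glucose, stood at 118.2 and 112.4 TPM. The mitochondrial pyruvate carrier genes Mpc1 and Mpc2 stood at 188.0 and 191.1 TPM and at 141.7 and 150.8 TPM. The 9 genes of the NADH shuttles, which compete with lactate dehydrogenase for cytosolic NADH, had a median log2 ratio of 0.22, with 8 of 9 above 0 and none 2-fold apart. Their highest members were Mdh2 at 417.8 and 434.2 TPM and Mdh1 at 299.6 and 377.4 TPM. Among 8 genes of lactate and proton handling, Car3, a carbonic anhydrase of slow muscle and fat, stood at 970.3 and 868.0 TPM. Of those above the count minimum, Slc4a4 differed most, at 11.1 and 7.09 TPM (log2 ratio -0.87). It was named after its values were seen.

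**Figure D5:**
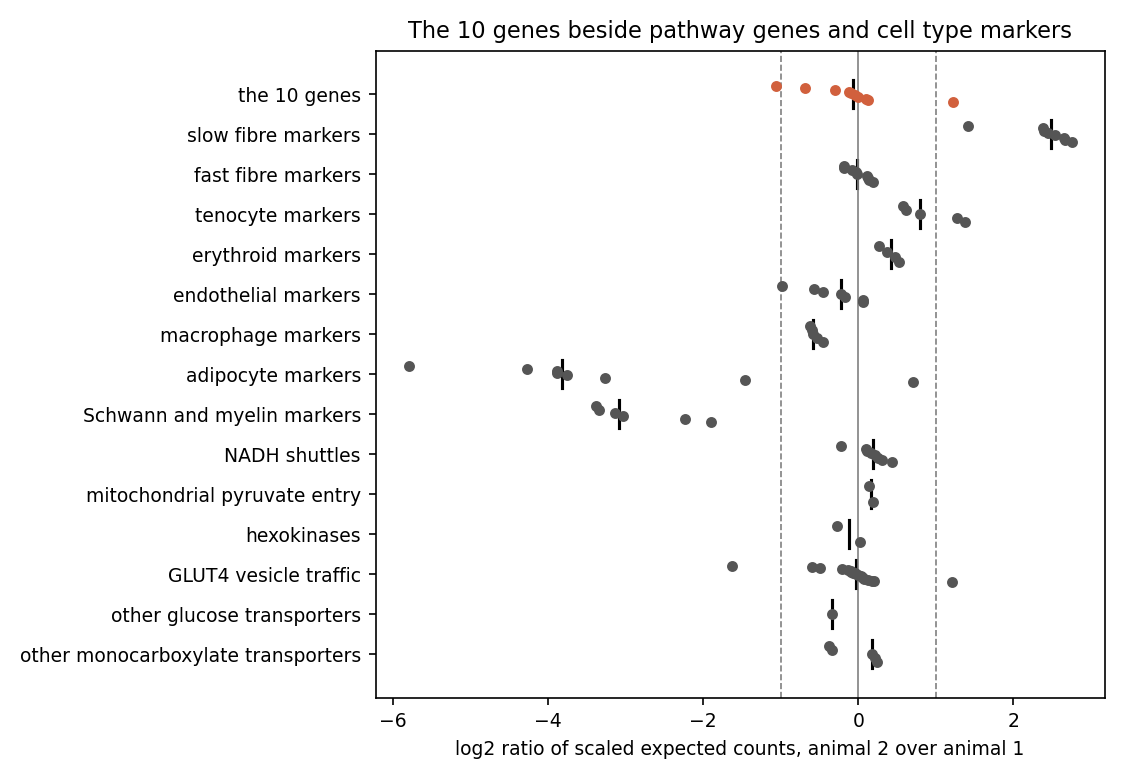
Log2 ratio of scaled expected counts, animal 2 over animal 1, for the 10 genes (orange) and for those genes of 14 lists (grey) whose mean count reached 100, with the median of each as a black bar. Dashed lines mark 2-fold. Slow fibre markers lie on the right and adipocyte (except Lpl) and Schwann cell markers on the left, both further out than most of the 10 genes.

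Counting limits were small for most of the set. The deposited posterior SD of the count, a measure of uncertain read assignment, was 0 for 8 genes, 0.40 and 0.54 counts for Ldha and 5.27 and 6.78 counts for Ldhb. Both share sequence with other genes: 0.590% of 100-nt windows of Ldha transcripts also occur in Gm5452 or Ldha-ps2, and 6.44% of those of Ldhb in Gm5514. Slc2a12 shared more, 7.45% with Tbpl1, at a posterior SD of 0. Slc2a1 and Slc2a3 shared 0.158% and 0.164%. No such window was shared between any 2 of the 10 genes.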

How the data were processed

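Gene and transcript levels were measured in 2 libraries of gastrocnemius. The authors deposited a gene table and a first transcript table with expected counts and TPM in the column layout of RSEM, and a second transcript table with estimated counts and TPM in that of kallisto, per the file headers. The percent of a gene's TPM was computed here from the deposited TPM. Both kinds refer to mm10 with GENCODE M21, per the deposited file lists. Not given in the sources used here are tools, versions and the strand setting. Reads of CAST alleles were counted on a B6 genome, and the effect was not analysed here.

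Spike-ins and 26248 numbered rows without a gene name (3 and 5 counts) stayed out of library sizes. Expected counts were rounded for edgeR's TMM factors, computed over the 15709 genes whose mean count reached 10. Ratios between animals used a prior count of 0.5 and were taken as apart at 2-fold or more with a mean count of 100 or more. For pairs of genes the log2 ratio of TPM + 0.1 was used. No p-value was computed. The procedure was tested on simulated data. Alternatives were DESeq2 size factors, library size, spike-in totals, other prior counts, pseudocounts and minimums, expected counts in place of TPM, the second transcript table and each library left out.

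The members and the 20 lists of other genes (146 entries, all matched) were chosen with earlier results of these data known. Besides the 10 genes, the rule named the 3 genes of highest mean TPM in each list and any of its genes 2-fold or more apart. Lists were: other glucose transporters, other monocarboxylate transporters, other chaperones, other lactate dehydrogenases, GLUT4 vesicle traffic, hexokinases, pyruvate entry, NADH shuttles, lactate and proton handling, and markers of 11 cell types. The software was Python 3.11.15 with scipy 1.17.1, pandas 2.3.3, matplotlib 3.10.9 and numpy 2.4.6. Scaling used DESeq2 1.42.0 and edgeR 4.0.16 under R 4.3.3.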

Additional observations from a re-analysis of the deposited data

How the results depend on the processing

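The count of genes 2-fold or more apart fell from 2 to 1 with ERCC spike-in totals and to 1 in the second transcript table, because Slc2a1 then stood at -0.85 and -0.99, and Ldhb remained in both. The median log2 ratio of the 10 genes was -0.16 with library size alone and 0.15 with spike-in totals, against -0.06. Spike-in totals moved the median of all genes to 0.22 and library size to -0.09, and the share of 2-fold genes that were higher in animal 2 was 25.8% with TMM, 44.1% with spike-ins and 18.8% with library size. The log2 ratios of 5 genes (Slc2a8, Slc2a12, Slc16a1, Bsg and Ldha) changed sign over the settings and 5 kept 1 sign. Pairs beyond the spread numbered 8 or 9 of 9 under every alternative run, and the added pair was Ldha over Ldhb. No paired analysis was possible because there was 1 group. Leaving out a library gave 9 to 10 genes at 1 TPM. These 2 libraries give no test, and depth limits Slc2a3, Slc2a8 and Slc2a1 most, which had the widest counting intervals of the 10 genes.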

Other observations

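The remaining lists held these values. Erythroid markers summed to 237.2 TPM in animal 1 and 304.9 TPM in animal 2 (median log2 ratio 0.47). Tenocyte markers summed to 113.8 and 204.3 TPM, and 2 of 5 were 2-fold higher in animal 2: Fmod, a tendon proteoglycan, at 51.2 and 115.4 TPM, and Mkx, a tendon transcription factor, at 1.34 and 2.76 TPM. Hcar1, the lactate receptor of fat cells, was named after its values were seen: it had 100 and 8 expected counts, below the mean count minimum, and stood at 0.83 and 0.06 TPM.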
